A study of Oryza sativa with 35 samples.

Results

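The rice loci described here are those whose protein description contains "40S ribosomal protein" or "60S ribosomal protein". The choice used only the descriptions beside the expression table, and 225 of 57778 loci had such a description. Of these, 202 passed the filter used for testing, a mean of at least 0.5 FPKM (fragments per kilobase of locus, scaled to library depth) over all libraries, as did 22961 loci in all. By description the 225 loci fell into 89 of the small (40S) subunit, 117 of the large (60S) subunit, 12 fusions of ubiquitin to a ribosomal protein, 4 labelled mitochondrial and 3 labelled L18a-like, of which 82, 108, 8, 1 and 3 were tested. The last 7 match the rule by name although they are not cytosolic ribosomal proteins of the core set.

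RNA sequencing was carried out on whole seedlings of 2 rice lines, all 30 days old. 9311 is a chilling-sensitive indica variety. DC90 is 1 substitution line that carries CTS-12, a wild rice (Oryza rufipogon) locus, in the 9311 background and tolerates chilling; its libraries are titled W9 and labelled as the tolerant genotype. Seedlings of both lines were sampled before chilling treatment (0 h), after 12, 24 and 72 h at a day temperature of 10 °C and a night temperature of 8 °C, and after 12 and 24 h of recovery under normal conditions (84 and 96 h). Each of the 12 groups held 3 libraries except 9311 at 84 h, with 2, which gave 35 libraries. The study describes them as biological replicates, and nothing more says how many plants stood behind each, so the p-values measure the spread between these libraries. The 12 and 84 h timepoints lay 12 h out of phase with the day of the other timepoints, and this cannot be told apart from treatment in a comparison of them with 0 h.

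The cytosolic ribosome translates nuclear mRNAs. Its small subunit decodes the mRNA and its large subunit joins the amino acids, and each holds 1 copy of most of its proteins, so that the cell has to make them in matched amounts. In plants nearly every ribosomal protein is encoded by several loci whose products are near-identical, and the composition of the ribosome can therefore change by a switch between copies. S27a and L40 are made as fusions to ubiquitin, which is cut off and joins the cell's pool of free ubiquitin, the tag for protein breakdown.

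The members carried 80 different protein names, and 77 had at least 1 tested locus. Of these 77, 4 had 1 tested copy, 34 had 2 and 39 had 3 or more, up to 6. They were among the most abundant transcripts: the median of the mean FPKM was 148 over the 202 tested members and 7.96 over all tested loci, and 141 of the 202 lay above 100 FPKM against 836 of the 22961. The highest large subunit members were L27 (LOC_Os02g18380), L35 (LOC_Os02g30050) and L23 (LOC_Os10g32920), with mean values of 966, 694 and 657 FPKM. The highest small subunit members were S8 (LOC_Os04g28180), S17 (LOC_Os10g27190) and S30 (LOC_Os06g07580), with 595, 590 and 419 FPKM. Among the fusions, ubiquitin-S27a at LOC_Os05g06770 and LOC_Os01g22490 averaged 413 and 385 FPKM and ubiquitin-L40 at LOC_Os03g13170 averaged 309 FPKM. At the other end, 14 tested members lay under 5 FPKM, and 10 of the 23 untested members had no count in any library.

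Library depth ranged from 28004101 to 68927044 counted reads. The members took between 1.89% and 6.35% of them. In the order of the 6 timepoints, the mean share in 9311 was 3.55%, 3.05%, 3.01%, 4.60%, 5.53% and 3.42%, and in DC90 it was 3.88%, 3.46%, 3.34%, 4.80%, 5.85% and 4.28%. Both lines thus had their highest mean share at 12 h of recovery, and the highest group mean was 1.83 times the lowest in 9311 and 1.75 times in DC90. Replicates of 1 group could differ by more than that. The 3 libraries of 9311 at 12 h held 2.09%, 5.16% and 1.89%, and those of DC90 at 0 h held 3.28%, 5.85% and 2.52%, whereas the 3 libraries of DC90 at 72 h differed by a factor of only 1.18. In bulk seedlings, a smaller part of the plant rich in these transcripts and less of them per cell cannot be told apart.

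**Figure D1:**
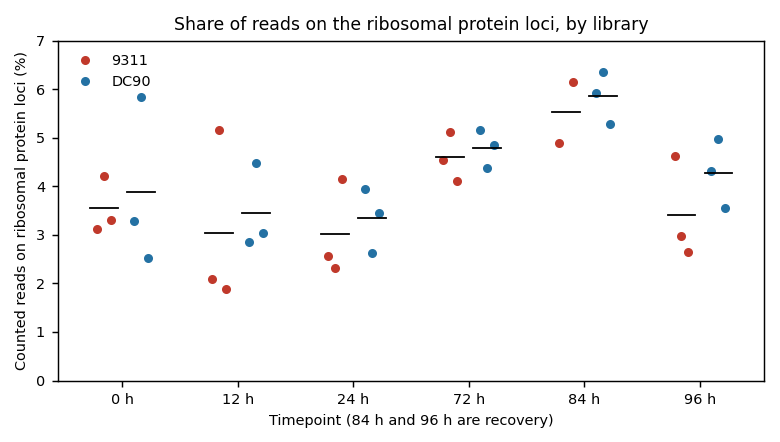
Share of all counted reads that fell on the 225 ribosomal protein loci, in percent, for each library (points) by timepoint in 9311 and DC90, with bars at the group means. The lowest library held 1.89% and the highest 6.35%, and at 12 h in 9311 and 0 h in DC90 replicate 2 stood above the other libraries of its group.

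The spread between replicates was shared by most members. Replicate 2 of DC90 at 0 h was the highest of its 3 libraries for 184 of the 202 tested members (91.1%), but for 34.4% of all tested loci. Replicate 2 of 9311 at 12 h was the highest for 179 members (88.6%), and for 39.8% of all loci. The same replicate number was also the highest in 9311 at 0 h, for 179 members (88.6%), and in DC90 at 12 h, for 178 (88.1%). Of all loci, 36.1% and 32.7% were highest in these libraries. At 24 h most members were instead highest in replicate 3 of 9311 (159) and replicate 1 of DC90 (143). Across the 35 libraries, the deviation of a member from its group means followed that of the other members with a median correlation of 0.85. It was 0.8 or more for 119 members (58.9%), as for 1.80% of the 22759 other tested loci. These correlations describe libraries that share depth and scaling. The median was 0.88 for large subunit members and 0.83 for small subunit members, but 0.34 for the ubiquitin fusions. The fusions ran from -0.23 at LOC_Os07g31110, with a mean of 1.81 FPKM, to 0.93 at LOC_Os01g22490, with 385 FPKM. LOC_Os05g06770, with 413 FPKM, had 0.18, and it read 16.5 FPKM in replicate 3 of 9311 at 24 h beside 236 and 198. The fusions thus did not behave as 1 class. The ratio of summed small subunit FPKM to summed large subunit FPKM stayed between 0.550 and 0.621 in all 35 libraries.

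Some other transcripts moved with this spread, and others did not. The library with the highest member share was also the highest of its group in the summed FPKM of the acidic stalk proteins in 12 of 12 groups, of ribosome assembly factors in 11, of elongation factors in 10 and of dividing cell markers in 9, and the lowest in leaf mesophyll markers in 10. It was the lowest in dividing cell markers in 2. For ribosomal proteins of chloroplast and mitochondrion it was the highest in 5 groups and the lowest in 4, and for root markers the highest in 2 and the lowest in 7. The stalk proteins P0, P1 and P2 recruit the elongation factors to the large subunit and are described as "60S acidic ribosomal protein", so they fall outside the rule (12 loci, 9 tested). Their most abundant locus, P1 at LOC_Os08g02340, averaged 845 FPKM. The part of tissue composition in the differences between replicates was not tested.

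During chilling, with all libraries fitted, a smaller share of the members than of all tested loci was called in each direction. For lower members at 12 h in 9311 the shares lay close together, and the count depended on single libraries. Calls are from edgeR's quasi-likelihood test with p-values adjusted over all 22961 loci and a threshold of 0.05, and log2 fold changes are given with their standard error. In 9311 at 12 h, 0 members were higher and 20 (9.90%) were lower than at 0 h, where 13.9% and 11.3% of all tested loci were. At an unadjusted p under 0.05, 2 members were higher, and DESeq2 called 1 higher. In DC90 at 12 h, 0 members were higher and 10 (4.95%) lower, against 14.3% and 14.5% of all loci. In 9311, 1 was higher without replicate 1 at 0 h. In DC90, 3 were higher at an unadjusted p under 0.05 and 2 by DESeq2. At 24 h, 7 members (3.47%) were higher and 13 (6.44%) lower in 9311, against 20.7% and 20.4%, and 7 were higher and 18 (8.91%) lower in DC90, against 20.1% and 20.5%. On the FPKM scale with limma the split in 9311 at 24 h was 2 higher and 28 lower. All 10 members called at 12 h in DC90 were also called lower in 9311, which is 50% of the 9311 calls, whereas over all tested loci the calls in both lines made up 75.9% of those in 9311 and 66.5% of those in DC90. The count of lower members at 12 h in 9311 was 50 of the 202 without replicate 2 of that group. The share of all loci in that fit is not given here. The count was 5 without its replicate 1, 9 without its replicate 3, 7 without replicate 2 at 0 h and 13 without replicate 3 at 0 h. In DC90 at 12 h it was 2 without replicate 2 at 0 h, 16 without replicate 3 at 0 h and 3 without replicate 1 or 3 at 12 h, and 5 members were higher without replicate 2 at 0 h. At 24 h the count of lower members in 9311 was 7 without replicate 2 at 0 h or replicate 1 at 24 h and 8 without replicate 2 at 24 h. In DC90 at 24 h, 16 were higher and 7 lower without replicate 2 at 0 h, 4 and 31 without replicate 3 at 0 h, 2 were higher without replicate 1 at 24 h, and 11 and 10 were lower without replicate 2 and replicate 3 at 24 h.

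Of the chilled timepoints, 72 h had the most members higher than at 0 h in both lines. In 9311, 34 members (16.8%) were higher and 8 (3.96%) lower than at 0 h, against 23.9% and 24.9% of all tested loci. The median log2 fold change was 0.29 over the 202 members, with quartiles of -0.03 and 0.62, and -0.05 over all tested loci. In DC90, 13 (6.44%) were higher and 9 (4.46%) lower, against 18.6% and 21.6%, and the median was 0.01 against -0.07. The FPKM scale with limma gave 21 higher and 4 lower in DC90. By subunit, 12 small subunit members were higher and 5 lower in 9311, with a median of 0.31, and 18 large subunit members were higher and 2 lower, with a median of 0.30. Without replicate 2 of DC90 at 0 h, the library with the high member share, 30 members were higher in DC90 and 5 lower, and the median was 0.37. Without replicate 3 of that group 14 were lower and the median was -0.21, with 134 members below 0, so that its sign depended on which 0 h library was left out. Without replicate 2 of DC90 at 72 h 4 were lower. In 9311 the count of higher members was 22 without replicate 1 or replicate 3 of 0 h, and the median was 0.44 without replicate 2 of 0 h.

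**Figure D2:**
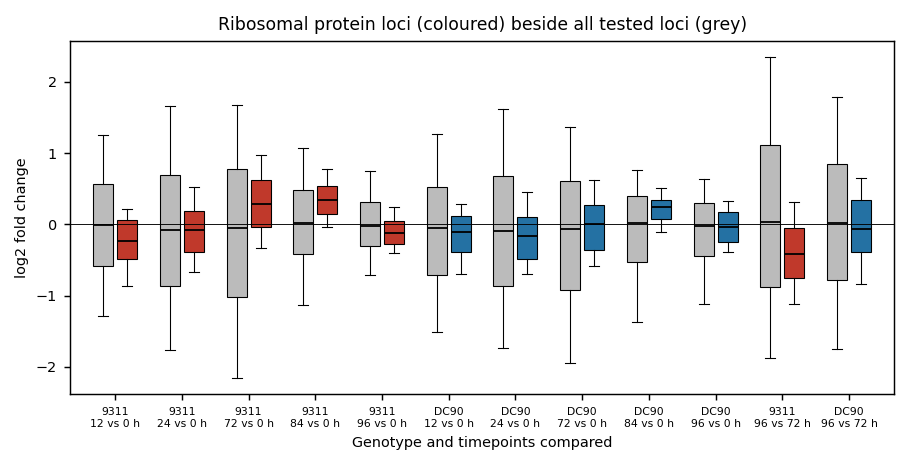
Log2 fold changes of the 202 tested members (coloured) and of all 22961 tested loci (grey) in 12 comparisons of timepoints, with boxes at the quartiles and whiskers at the 10th and 90th percentiles. The members' medians lie between -0.42, for 96 h against 72 h in 9311, and 0.34, for 84 h against 0 h in 9311.

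At 72 h, 18 members were called in both lines, 12 higher and 6 lower, each in the same direction. They made up 42.9% of the 42 calls in 9311 and 81.8% of the 22 in DC90, and over all tested loci the same shares were 68.8% and 83.4%. The comparisons in each line use their own 0 h libraries.

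Among the loci called in both lines, the largest rise was that of a ubiquitin-L40 locus, LOC_Os09g31031. In 9311 alone the L26 copy LOC_Os01g04730 had a larger called rise, but its 72 h libraries read 28.1, 0 and 225 FPKM. LOC_Os09g31031 read 2.24, 2.14 and 1.45 FPKM at 0 h and 124, 229 and 99.1 FPKM at 72 h in 9311. In DC90 it read 3.97, 3.41 and 2.42 FPKM at 0 h and 485, 267 and 152 FPKM at 72 h. The groups were far apart in both lines, and the log2 fold change was 6.26 ± 0.68 in 9311 (adjusted p = 7.3e-08) and 6.21 ± 0.68 in DC90 (adjusted p = 1.3e-07). At 24 h only replicate 3 of 9311 had risen, with 49.3 FPKM beside 3.33 and 4.03, and the 3 DC90 libraries read 4.60, 5.36 and 5.06 FPKM. At 96 h it read 1.63, 2.41 and 2.52 FPKM in 9311 and 2.49, 1.67 and 1.78 FPKM in DC90, so that it had returned to its level before chilling.

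A pair of weakly expressed ubiquitin-L40 loci rose at the same timepoint. LOC_Os03g15370 read 0.687, 0.429 and 0.302 FPKM at 0 h and 4.50, 2.86 and 2.33 FPKM at 72 h in 9311, and 0.282, 0.554 and 0.532 FPKM and then 10.2, 6.59 and 2.95 FPKM in DC90. Its log2 fold changes were 3.35 ± 0.95 (adjusted p = 0.0049) and 3.97 ± 0.97 (adjusted p = 0.0019). LOC_Os09g27930 reached 1.33, 3.19 and 1.82 FPKM at 72 h in 9311 and 6.25, 4.03 and 1.93 FPKM in DC90, from at most 0.382 FPKM at 0 h, with log2 fold changes of 3.65 ± 0.83 and 3.88 ± 0.82. With a mean of 0.963 FPKM over all libraries, it passed the filter mostly through the libraries in which it was high. The abundant copy did not follow: LOC_Os03g13170 read 263, 337 and 327 FPKM at 0 h and 306, 219 and 312 FPKM at 72 h in 9311 (log2 fold change -0.08 ± 0.28, adjusted p = 0.84), and -0.11 in DC90 (adjusted p = 0.79). Summed over all 9 L40 copies, tested or not, the log2 fold change at 72 h was 0.31 ± 0.28 in 9311 (adjusted p = 0.38) and 0.51 ± 0.28 in DC90 (adjusted p = 0.16). Of the 8 tested fusions, 3 were higher and 0 lower in each line at 72 h, where 23.9% of all tested loci were higher in 9311 and 18.6% in DC90. In both lines the 3 were LOC_Os09g31031 and this weakly expressed pair.

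**Figure D3:**
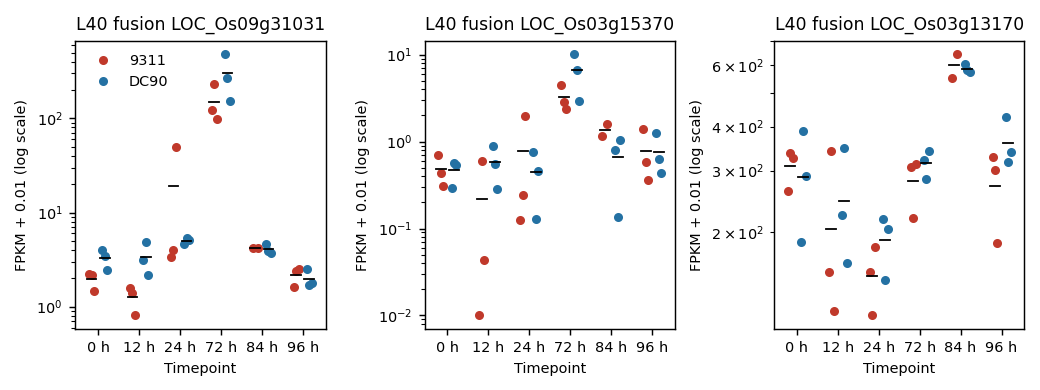
FPKM of 3 ubiquitin-L40 loci in each library (points) by timepoint in 9311 and DC90, on a log axis. LOC_Os09g31031 lay at 99.1 to 485 FPKM at 72 h and at most at 3.97 FPKM at 0 h, LOC_Os03g15370 rose at a lower level, and LOC_Os03g13170 stayed above 100 FPKM throughout.

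Abundant loci of S6 and L10 rose in both lines at 72 h. S6, the small subunit protein phosphorylated by S6 kinase downstream of TOR, read 164, 212 and 154 FPKM at LOC_Os03g27260 at 0 h and 319, 374 and 319 FPKM at 72 h in 9311. In DC90 it went from 129, 208 and 121 FPKM to 361, 292 and 329 FPKM. The groups did not overlap in either line, with log2 fold changes of 0.99 ± 0.20 (adjusted p = 0.00027) and 0.84 ± 0.20 (adjusted p = 0.0017). L10 at LOC_Os05g07700, a protein added late in the making of the large subunit, went from 264, 316 and 287 FPKM to 585, 424 and 655 FPKM in 9311 and from 247, 332 and 191 FPKM to 479, 508 and 523 FPKM in DC90. Its log2 fold changes were 1.11 ± 0.20 (adjusted p = 6.4e-05) and 0.71 ± 0.20 (adjusted p = 0.0062). Both loci showed no overlap between 0 and 72 h, and both were already between the 2 levels at 24 h in some libraries.

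The other loci that rose in both lines were copies of proteins with several loci. L7 at LOC_Os08g42920 rose by 1.28 ± 0.20 in 9311 and 0.81 ± 0.20 in DC90 (adjusted p = 9.7e-06 and 0.0017). L10a at LOC_Os08g44450, a protein of the mobile stalk beside the exit of the tRNAs, rose by 1.46 ± 0.25 and 1.13 ± 0.24 (adjusted p = 2.9e-05 and 0.00064). L32 at LOC_Os09g32532 rose by 1.29 ± 0.27 and 0.92 ± 0.27, and L3 at LOC_Os11g06750 by 0.70 ± 0.24 and 0.65 ± 0.24. Over all copies, the L7 sum changed by 0.36 ± 0.26 and 0.05 ± 0.26 (adjusted p = 0.27 and 0.89), the L10a sum by 0.58 ± 0.27 and 0.24 ± 0.27 (adjusted p = 0.079 and 0.51) and the L3 sum by 0.66 ± 0.30 and 0.65 ± 0.30 (adjusted p = 0.072 and 0.085). The other L3 copy, LOC_Os12g07010, had at most 7 reads in DC90 at 0 and 72 h. The DC90 sum of L3 was therefore nearly LOC_Os11g06750 alone and adds nothing to its own value. S9, a protein at the entry of the mRNA channel, rose at LOC_Os03g26229 from 25.4, 25.4 and 25.2 FPKM to 85.9, 205 and 37.6 FPKM in 9311, where the 72 h libraries were spread widely, and from 18.9, 35.8 and 11.4 FPKM to 154, 99.7 and 88.8 FPKM in DC90. Its log2 fold changes were 2.02 ± 0.47 (adjusted p = 0.001) and 2.01 ± 0.47 (adjusted p = 0.0014). A further S9 copy, LOC_Os04g56670, rose by 1.03 ± 0.20 and 0.69 ± 0.20. S23 at LOC_Os03g60400, at or under 3.00 FPKM in every library at 0 and 72 h, rose by 1.40 ± 0.49 and 1.93 ± 0.50.

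S28, a small subunit protein near the exit of the mRNA, has a single locus among the members, LOC_Os10g27174. In 9311 it read 69.2, 96.6 and 55.0 FPKM before chilling and 583, 376 and 638 FPKM at 72 h, with 170, 63.4 and 154 FPKM after 12 h and 227, 232 and 350 FPKM after 24 h in between, and the log2 fold change at 72 h was 2.95 ± 0.66 (adjusted p = 0.00066). In DC90 the 72 h libraries read 504, 504 and 529 FPKM. The libraries of DC90 at 0 h read 71.8, 609 and 45.3 FPKM, so that replicate 2 lay above every 72 h library and the other 2 far below, and the log2 fold change was 0.87 ± 0.62 (adjusted p = 0.28). At 96 h the values were 90.2, 269 and 47.2 FPKM in 9311 and 65.3, 89.1 and 58.4 FPKM in DC90, with falls from 72 h of 1.99 ± 0.64 and 2.73 ± 0.65 on the log2 scale (adjusted p = 0.01 and 0.0015).

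The 6 loci that fell in both lines at 72 h included S5, which lies at the exit of the mRNA channel. At LOC_Os01g01060 it read 123.1, 193 and 130 FPKM at 0 h and 76.5, 60.4 and 78.7 FPKM at 72 h in 9311, and 128, 243 and 107 FPKM and then 86.6, 68.1 and 91.5 FPKM in DC90. The groups did not overlap, and the log2 fold changes were -0.98 ± 0.27 (adjusted p = 0.0041) and -1.22 ± 0.27 (adjusted p = 0.00085). The fall was present at 12 h (-1.48 ± 0.27 and -1.27 ± 0.27) and at 24 h (-1.61 ± 0.27 and -1.82 ± 0.28). L11 at LOC_Os06g35730, which binds the 5S ribosomal RNA together with L5, went from 53.9, 84.3 and 61.8 FPKM to 19.9, 30.5 and 25.8 FPKM in 9311 and from 58.0, 106 and 35.8 FPKM to 34.5, 26.5 and 29.4 FPKM in DC90. The log2 fold changes were -1.30 ± 0.34 (adjusted p = 0.0026) and -1.37 ± 0.34 (adjusted p = 0.0022). SA at LOC_Os03g08440 changed by -0.65 ± 0.22 and -0.62 ± 0.22. S10 at LOC_Os01g73160 changed by -0.94 ± 0.39 and -1.13 ± 0.39. Its value in DC90 was -0.51 without replicate 2 at 0 h and -1.02 without replicate 2 at 72 h, and the call was lost in both cases. The weakly expressed S14 locus LOC_Os02g01540, at 4.53, 5.53 and 5.59 FPKM at 0 h in 9311, read 0.640, 1.80 and 0.319 FPKM at 72 h (-2.51 ± 0.54, adjusted p = 0.00044), and it changed by -1.88 ± 0.52 in DC90. The L18a-like locus LOC_Os06g25294 changed by -1.26 ± 0.27 and -1.02 ± 0.27.

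In 9311, 2 proteins had copies called in opposite directions at 72 h, and in DC90 none had. For S9, LOC_Os03g26229 rose by 2.02 and LOC_Os07g43510 fell by 1.56 on the log2 scale. The sum over the 5 S9 copies had a log2 fold change of 0.65 ± 0.34 (adjusted p = 0.11). For S14, the locus Oryza_sativa_newGene_2099, which the authors added to the annotation, rose by 0.69 while LOC_Os02g01540 fell by 2.51. The S14 sum changed by 0.19 ± 0.28 (adjusted p = 0.6). The call of Oryza_sativa_newGene_2099 was lost without replicate 1 or 3 at 0 h (0.62 and 0.65) and without replicate 1 or 2 at 72 h (0.67 and 0.62), and that of LOC_Os07g43510 was lost without replicate 3 at 72 h (-1.23).

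Shares among copies moved where sums at 72 h did not pass the test, which does not show that the sums stayed level. The following examples were chosen after their values were seen, and each share is the part of the summed FPKM of the tested copies of 1 protein. LOC_Os01g01060 held 41.8% to 46.0% of S5 in the 9311 libraries before chilling, and 24.3% to 26.6%, 24.4% to 29.5% and 18.7% to 32.8% at the chilled timepoints in their order. In DC90 it held 37.4% to 48.9% before chilling, and 25.3% to 29.5%, 18.6% to 27.3% and 30.0% to 30.6% after it began. No chilled library of either line reached the 0 h libraries, and at 84 h the shares were 45.7% to 49.2% and 49.0% to 57.1%. Over both S5 copies the sum changed by -0.14 ± 0.27 in 9311 (adjusted p = 0.7) and -0.59 ± 0.27 in DC90 (adjusted p = 0.083) at 72 h. At the first chilled timepoint it changed by -0.64 ± 0.27 (adjusted p = 0.085) and -0.49 ± 0.27 (adjusted p = 0.18). The mean S5 sum in 9311 was 337 FPKM at 0 h and 194, 151 and 285 FPKM at the chilled timepoints in their order. In DC90 it was 352 FPKM and then 223, 183 and 270 FPKM. The total thus also fell while the share moved.

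Shares also moved among the 4 tested copies of L11. LOC_Os06g35730 held 12.8% to 14.6% at 0 h and 4.43% to 5.99% at 72 h in 9311, and 12.0% to 15.1% and 6.20% to 6.80% in DC90. LOC_Os05g11710 held 35.8% to 38.1% at 0 h and 49.5% to 58.6% at 72 h in 9311, and 35.4% to 37.6% and 48.6% to 51.6% in DC90. The L11 sum over all 6 copies, tested or not, changed by 0.07 ± 0.28 (adjusted p = 0.86) and -0.25 ± 0.28 (adjusted p = 0.5). At 96 h LOC_Os06g35730 again held 12.4% to 13.8% in 9311 and 12.8% to 14.2% in DC90. L32 at LOC_Os09g32532 rose from 17.6% to 21.6% of its protein's sum to 30.7% to 35.7% in 9311 and from 17.7% to 23.8% to 30.5% to 32.8% in DC90, with sums that changed by 0.50 ± 0.32 (adjusted p = 0.2) and 0.24 ± 0.32 (adjusted p = 0.59). L10a at LOC_Os08g44450 held 18% to 23.8% at 0 h and 24.8% to 45.2% at 72 h in 9311, and 18.7% to 22.7% and 32.9% to 40.3% in DC90. S29 at LOC_Os11g41610 fell early: it held 46.3% to 47.4% at 0 h and 28.4% to 33.2% at 12 h in 9311, and 40.1% to 51.9% and 29.3% to 30.7% in DC90. Its log2 fold changes at 12 h were -1.47 ± 0.29 (adjusted p = 0.00048) and -1.08 ± 0.28 (adjusted p = 0.0057). When the reads of all copies were summed by protein name and tested, 6 proteins were higher and 0 lower at 72 h in 9311, and 1 was higher and 1 lower in DC90. Among single tested loci, 23.9% were higher and 24.9% lower in 9311 and 18.6% and 21.6% in DC90. The 6 included S28 and the L6 labelled mitochondrial, which have 1 locus each and are therefore no sums over copies. S6 was higher in both lines (0.99 ± 0.21 and 0.84 ± 0.20), and L10 in 9311 (0.84 ± 0.22, adjusted p = 0.0027; DC90 0.41 ± 0.22, adjusted p = 0.14).

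**Figure D4:**
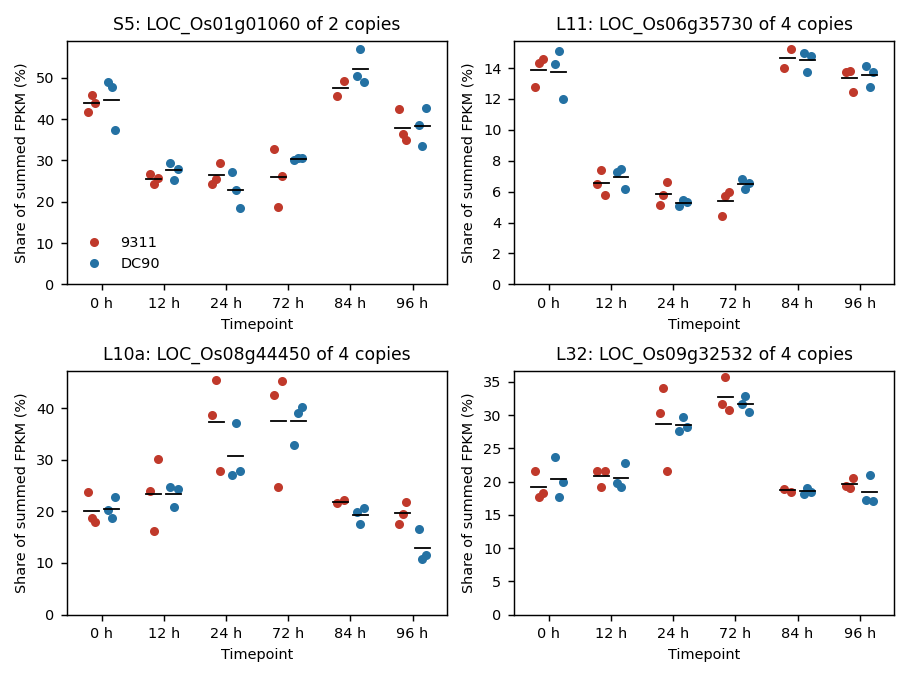
Share of the summed FPKM of all tested copies of a protein held by 1 copy, in percent, for S5 (LOC_Os01g01060), L11 (LOC_Os06g35730), L10a (LOC_Os08g44450) and L32 (LOC_Os09g32532), in each library (points) by timepoint in 9311 and DC90. The S5 and L11 copies fall from 0 h to 72 h and the L10a and L32 copies rise, and at 96 h the S5 copy holds 35% to 42.5% in 9311 and 33.5% to 42.7% in DC90.

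After the seedlings were returned to normal conditions, few members differed from 0 h. At 84 h, 1 member was higher and 1 lower in 9311, against 3.78% and 5.84% of all tested loci, and 4 (1.98%) were higher and 1 lower in DC90, against 3.24% and 9.07%. The medians were 0.34 and 0.24 over the members and 0.02 and 0.01 over all loci, and 174 and 170 of the 202 members lay above 0. The 9311 median was 0.52 without replicate 1 and 0.11 without replicate 3 at 84 h, and that of DC90 was 0.59 without replicate 2 and 0.00 without replicate 3 at 0 h, where 101 members lay above 0. The FPKM scale with limma gave 6 higher and 0 lower in 9311 and 42 higher and 1 lower in DC90. Without replicate 2 of DC90 at 0 h, 16 members were higher in DC90, and the count was 1 without replicate 3 at 0 h or replicate 1 at 84 h and 2 without replicate 1 at 0 h or replicate 2 at 84 h. The count of lower members in DC90 was 0 without replicate 1 at 0 h or any 1 library at 84 h. In 9311 the higher member was L31 at LOC_Os08g39500, which read 65.9, 82.6 and 63.2 FPKM at 0 h and 142 and 232 FPKM at 84 h (1.11 ± 0.36, adjusted p = 0.049), and the call was lost without any 1 of the 0 h libraries or without replicate 3 at 84 h, while without replicate 1 at 84 h 2 members were higher. The lower member was the S9 copy LOC_Os07g43510, whose call was lost without replicate 1 or 3 at 0 h or replicate 3 at 84 h, and also without replicate 1 at 84 h. At 96 h, 0 members were higher and 0 lower in 9311, against 0.971% and 1.66% of all loci. At an unadjusted p under 0.05, 0 were higher and 5 lower, and DESeq2 called 0 and 0. In DC90, 2 were higher and 0 lower, against 1.60% and 4.74%, with 7 lower at an unadjusted p under 0.05 and 3 by DESeq2. Without replicate 1 or 3 of DC90 at 0 h, 1 and 2 were lower. The higher members were copies with hardly any reads before chilling, which passed the filter only through the few libraries where they were high, so that little can be read from these calls: L7 at LOC_Os08g42940 had 2, 1 and 1 reads at 0 h and 58, 127 and 42 at 96 h, and S6 at LOC_Os07g42950 had reads in replicate 2 alone (3, 979 and 2), without which 1 member was higher.

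From 72 h of chilling to 96 h the members moved mostly down in 9311 and in both directions in DC90. In 9311, 57 members (28.2%) were lower and 7 (3.47%) higher at 96 h than at 72 h, against 27.0% and 26.4% of all tested loci, and the median log2 fold change was -0.42 against 0.04. The lower count was 36 without replicate 2 and 30 without replicate 3 of 9311 at 96 h, and the higher count 4 without replicate 1. In DC90, 23 (11.4%) were lower and 16 (7.92%) higher, against 22.5% and 21.2%, with a median of -0.06 against 0.02. The higher count in DC90 was 9 without replicate 2 at 72 h and 10 without replicate 2 at 96 h, and the FPKM scale with limma gave 10 higher and 24 lower. Of the called members, 28 were called in both lines, 22 of them lower, which is 43.8% of the 9311 calls and 71.8% of the DC90 calls, below the 65.4% and 79.9% over all tested loci. The DC90 median turned to 0.09 without replicate 3 at 96 h and was -0.15 without replicate 2 at 96 h. LOC_Os09g31031 fell by 6.10 ± 0.68 and 7.07 ± 0.71 on the log2 scale (adjusted p = 6.6e-08 and 3.5e-08), and the S9 copy LOC_Os03g26229 fell by 2.47 ± 0.48 and 1.72 ± 0.47. L11 at LOC_Os06g35730 rose by 0.95 ± 0.34 and 1.37 ± 0.34 and S14 at LOC_Os02g01540 by 2.40 ± 0.54 and 1.78 ± 0.52. The L28 locus LOC_Os01g51020, under 10 FPKM in these groups, rose by 1.96 ± 0.58 and 1.76 ± 0.57. Its call in DC90 was lost without replicate 2 at 72 h (1.67) or replicate 2 at 96 h (1.55).

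Among other loci of translation, those of ribosome assembly had the highest median at 72 h in both lines. Over all tested loci, 23.9% were higher and 24.9% lower in 9311 and 18.6% and 21.6% in DC90. Of 37 tested ribosome assembly loci, 19 were higher and 1 lower in each line, with medians of 0.72 in 9311 and 0.67 in DC90. At 96 h 22 of them were lower than at 72 h in 9311 and 15 in DC90. Of 42 tested initiation factor loci, 21 were higher and 4 lower in 9311 and 12 higher and 2 lower in DC90. Of 17 elongation factor loci, 3 were higher and 1 lower in 9311 and 2 higher and 0 lower in DC90. The stalk proteins gave 4 higher and 0 lower of 9 in 9311 and 3 higher and 1 lower in DC90, and 7 TOR pathway loci gave 3 and 2 higher. The ribosomal proteins of chloroplast and mitochondrion split in both directions, with 32 of 124 higher and 38 lower in 9311 and 12 higher and 39 lower in DC90.

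Markers of tissue also differed from 0 h at 72 h, though not at this timepoint alone. Of 17 tested leaf mesophyll markers, 16 were lower at 72 h in 9311 and 15 in DC90, and their summed level went from 28600 to 34100 FPKM at 0 h to 1290 to 3270 FPKM in 9311 and from 25200 to 42600 FPKM to 2610 to 5020 FPKM in DC90. Of 28 tested markers of dividing cells (of 32, with the cyclin loci LOC_Os02g41720 and LOC_Os05g38760 at 0 in every library), 18 were lower in each line, 1 was higher in 9311 and 2 were higher in DC90. Their sum went from 1500 to 1900 FPKM to 420 to 513 FPKM in 9311 and from 1030 to 2600 FPKM to 420 to 555 FPKM in DC90. Root markers, of which 4 of 10 were tested and LOC_Os12g08480 was at 0 in every library, gave 2 lower in each line and summed to 115 to 141 FPKM at 0 h and 10.9 to 29.3 FPKM at 72 h in 9311, and to 40.3 to 356 FPKM and 37.0 to 42.6 FPKM in DC90. Already at 24 h, 9 mesophyll and 17 dividing cell markers were lower in 9311 and 8 and 14 in DC90. At 84 h, 13 mesophyll markers were still lower in 9311 and 12 in DC90, but only 0 and 1 dividing cell markers. These lists hold photosynthesis and cell cycle genes that also respond to treatment and the hour of sampling. Their part in the members' changes was not tested.

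Few members separated the lines. Over all timepoints, 0 members were higher and 2 lower in DC90, against 1.85% and 1.64% of all tested loci. The median difference was 0.15 on the log2 scale against 0.00 for all loci, and 170 of 202 members lay above 0. It was 0.09, with 145 above 0, without replicate 2 of DC90 at 0 h and 0.23 without replicate 2 of 9311 at 12 h. At an unadjusted p under 0.05, 32 were higher, DESeq2 called 4 higher, and 15 were higher without replicate 2 of 9311 at 12 h, 7 without replicate 2 of 9311 at 72 h 4 without replicate 3 of DC90 at 0 h, 2 without replicate 3 of DC90 at 96 h or of 9311 at 24 h, and 1 without replicate 2 of DC90 at 24 h or replicate 1 of 9311 at 84 or 96 h. At 72 h, 0 members were higher and 3 lower in DC90, against 2.64% and 2.57%, with 0 higher at an unadjusted p under 0.05 and 0 by DESeq2. The lower count was 7 without replicate 2 of 9311 at 72 h and 1 without any 1 of the DC90 libraries at 72 h. An interaction of line with timepoint during chilling was called for 1 member, against 0.270% of all loci, and 6 had an unadjusted p under 0.05. With 1 library left out at a time this count ran from 0 to 2. The difference between the lines in the 72 h response had a median of -0.31 over the members and -0.03 over all loci, and it lay below 0 for 179 members. Without replicate 2 of DC90 at 0 h the median was 0.07 and 77 of 202 lay below 0, without replicate 3 it was -0.54, and this direction thus rested on that library.

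Of the members lower in DC90, the first was the S9 locus LOC_Os07g43510. Its lowest, median and highest libraries were 0.889, 4.52 and 17.6 FPKM in 9311 and 0.493, 1.26 and 2.44 FPKM in DC90, with some overlap, since several 9311 libraries at 12, 72 and 84 h lay within the DC90 range. The difference was -1.69 ± 0.21 (adjusted p = 2.3e-06). The other was an L3 locus on chromosome 12, LOC_Os12g07010. L3 lies beside the peptidyl transferase centre, where the peptide bond is formed. The locus had 8993, 17165 and 24877 reads in the lowest, median and highest 9311 libraries. In DC90 it had 0 to 12 reads in 17 libraries and 13879 in replicate 1 at 24 h, so that 1 DC90 library had a 9311-like count (adjusted p = 2.9e-10).

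The locus numbered next to it showed the reverse. LOC_Os12g07020, described as a 5-formyltetrahydrofolate cyclo-ligase, an enzyme of folate metabolism, had 460, 1553 and 3015 reads in the lowest, median and highest 9311 libraries and 4495, 22435 and 35330 in those of DC90. The lowest DC90 count belonged to replicate 1 at 24 h, the same library in which LOC_Os12g07010 had reads. Summed over both loci, the libraries overlapped, with 10277, 18846 and 27507 reads in 9311 (17 libraries) and 13397, 22437 and 35342 in DC90 (18 libraries). Reads on the pair thus fell mostly on LOC_Os12g07010 in 9311 and on LOC_Os12g07020 in DC90, and the level of this L3 copy is uncertain in both lines. The tool that counted the reads is not given in the sources used here, and the cause was not tested. Of 8 members on chromosome 12, 6 were tested, and the other 5 differed between the lines by 0.27 to 0.31, with adjusted p-values of 0.11 to 0.76.

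**Figure D5:**
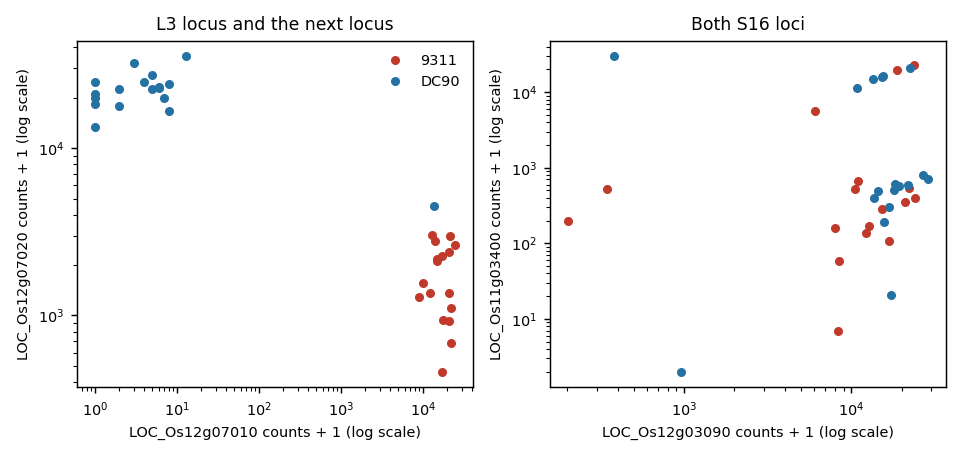
Counted reads plus 1 of paired loci in each library, on log axes: L3 (LOC_Os12g07010) against its neighbour LOC_Os12g07020, and the S16 copies LOC_Os12g03090 and LOC_Os11g03400. For L3 the libraries of 9311 and DC90 lie at opposite corners except DC90 at 24 h replicate 1, and for S16 the libraries of both lines spread along both axes.

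Similar jumps occurred between copies within a line. The S16 copy LOC_Os11g03400 had at least 5000 reads in 9 libraries and at most 796 in the other libraries, in groups of both lines. In 8 of these 9 its count lay within a factor of 1.2 of that of LOC_Os12g03090, with both above 5000, and in replicate 1 of DC90 at 84 h it was 29675 beside 382. S16 summed over both copies ran from 398 to 46278 reads. The L26 copy LOC_Os01g04730 had 3 or fewer reads in 28 libraries and at least 100 in 5, namely 4127 in 9311 at 24 h, 762 and 7346 in 9311 at 72 h, and 9503 and 821 in DC90 at 24 h, and it passed the filter only through these. In all, 10 members had a library with 3 or fewer reads and another with at least 100. Among them, S6 at LOC_Os07g42950 had 347 reads in replicate 1 of DC90 at 84 h and 979 in replicate 2 at 96 h and at most 4 elsewhere. Copies of 1 protein are near-identical and reads can be split between them, so single copies are uncertain. The sum over copies was no safer for S16 and L26. In DC90 the S16 sum was 19864, 29599 and 965 reads at 0 h, and the L26 sum was 7532, 18922 and 9694 at 24 h. Whether these jumps come from the plants or from the counting was not tested.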

How the data were processed

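RNA-seq was performed on whole rice seedlings, and the authors deposited 1 table with a read count and an FPKM value per locus and library. The study's methods name HISAT2 and Release 7 of the Rice Genome Annotation Project, whereas the submitters' processing notes name Bowtie 0.12.2 and a mouse build. The counting tool and its treatment of reads that match several loci are not given in the sources used here. The deposited FPKM values could not be derived from the deposited counts by depth and length alone. Protein names come from the Swiss-Prot descriptions in the table.

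Counts of loci with a mean of at least 0.5 FPKM were scaled by TMM and fitted over all 12 groups with edgeR 4.0.16 (R 4.3.3), using the quasi-likelihood test with Benjamini-Hochberg adjustment over all 22961 loci. A locus was called at an adjusted p of at most 0.05. The scripts were tested on simulated data. DESeq2 1.42.0 and limma 3.58.1 (on log2(FPKM + 1)) were alternatives, together with other filters, the thresholds of the study's methods, summed copies, a replicate block and the omission of each library. On the log2 scale, log2(FPKM + 1) shifted the median of all loci by -0.24 to 0.35 and log2(FPKM + 0.1) by -0.35 to 0.44. DESeq2 size factors shifted it by -0.02 to 0.05.

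The rule for the members reads only protein descriptions, but the rule and the lists were chosen with earlier results of these data known. Named loci were the 3 most abundant per class, the 5 largest rises and falls among calls at 72 h and from 72 to 96 h, the 3 largest at other timepoints where not yet named, the members called between lines or for the interaction, and proteins with copies called in opposite directions. Loci called at 72 h in both lines are also given. None of the 34 pairs of libraries within a group were duplicates, and pairs across groups were not compared for this. Correlations of deviations between libraries with the same replicate number ran from -0.27 to 0.34, so the numbers were not treated as pairs. Among the members, however, replicate 2 was the highest library for most of them at 0 and 12 h in both lines, but not at 24 h. Total counts per library limit the precision of weakly expressed loci. Sequences and genome positions were not used here.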

Additional observations from a re-analysis of the deposited data

Results flagged for a closer look

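The response of the L3 locus LOC_Os12g07010 to chilling differed between 9311 and DC90 by the interaction of line with timepoint (edgeR's quasi-likelihood F test, adjusted p = 0.037). DC90 had 0 to 12 reads at this locus except for 13879 in replicate 1 at 24 h. Without that library, the adjusted p for 24 h against 0 h in DC90 was 0.084 and the interaction was not called. It was not called either without replicate 1 or 2 of DC90 at 0 h, any 1 DC90 library at 12 or 72 h, any 1 9311 library at 0 h, replicate 1 of 9311 at 12 h, replicate 3 at 24 h, or replicate 1 or 3 at 72 h. The cause was not tested.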

How the results depend on the processing

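Counts below are of members, given as higher and lower where both moved by over 1.5 times. No named locus changed direction and counts not given stayed within 1.5 times, but medians over the members changed sign. The DC90 median at 12 h went from -0.11 to 0.25 and the difference between lines in the 72 h response from -0.31 to 0.07 without replicate 2 of DC90 at 0 h, and the DC90 median at 72 h from 0.01 to -0.21, -0.07 and -0.05 without replicate 3 or 1 at 0 h and replicate 3 at 72 h, and to -0.03 without the low-value filter. From 72 to 96 h in DC90 it went from -0.06 to 0.09 without replicate 3 at 96 h. With limma on log2(FPKM + 1), it went from -0.04 to 0.15 in DC90 at 96 h and from -0.11 to 0.12 between lines at 72 h. With DESeq2's Wald test, higher members numbered 1 in 9311 at 12 h, 12 at 24 h and 4 at 84 h (2 lower), 2 in DC90 at 12 h and 1 at 96 h (3 lower), and 4 between lines over all timepoints. With limma on log2(FPKM + 1) they were 2 and 28 in 9311 at 24 h, 6 higher at 84 h, 35 lower from 72 to 96 h, and in DC90 21 and 4 at 72 h, 42 higher at 84 h, 1 higher at 96 h and 10 higher from 72 to 96 h, with 1 lower in DC90 at 72 h between lines and 0 interactions; with log2(FPKM + 0.1), 4 and 0 in 9311 and 40 higher in DC90 at 84 h, the others moving to the same side. Without the low-value filter, 12 were lower in 9311 at 12 h, 0 higher at 84 h and 34 lower from 72 to 96 h. At a mean of at least 5 FPKM, 4 were lower in 9311 at 72 h, 3 higher and 0 lower at 84 h, and in DC90 4 were higher at 24 h, 2 and 0 at 84 h, 0 higher at 96 h and 10 higher from 72 to 96 h, with 1 lower between lines.

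With the groups compared fitted alone, 7 were lower in 9311 at 12 h, 13 higher at 24 h, 5 lower at 72 h and 30 lower from 72 to 96 h. In DC90 2 were lower at 12 h, 7 at 24 h and 4 at 72 h, 0 were higher at 84 h and 1 at 96 h, with 1 lower between lines at 72 h and 0 interactions. At the thresholds of the study's methods (a log2 fold change of 2 and an adjusted p of 0.001), 0 were lower in 9311 at 12 h, 1 and 2 at 24 h, 3 and 1 at 72 h, 0 and 0 at 84 h, 1 and 4 from 72 to 96 h. In DC90 0 were lower at 12 h, 1 and 1 at 24 h, 2 and 0 at 72 h, 0 and 0 at 84 h, 0 higher at 96 h, 1 and 2 from 72 to 96 h, and 1 lower between lines over all timepoints and at 72 h. Summed by protein (78 proteins), 0 were lower in 9311 at 12 h, 1 and 2 at 24 h, 6 and 0 at 72 h, 0 and 0 at 84 h and 0 and 16 from 72 to 96 h. In DC90 0 were lower at 12 h, 0 and 2 at 24 h, 1 and 1 at 72 h, 0 and 0 at 84 h, 0 higher at 96 h and 4 and 2 from 72 to 96 h, with 1 lower between lines over all timepoints and at 72 h and 0 interactions; there are fewer proteins than members to count.

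Without replicate 2 of DC90 at 0 h and replicate 2 of 9311 at 12 h together, chosen after seeing the data, 1 and 67 were called in 9311 at 12 h, and in DC90 8 and 3 at 12 h, 22 and 8 at 24 h, 40 and 5 at 72 h and 36 higher at 84 h, with 6 higher between lines.

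With 1 library left out at a time, higher and lower counts in 9311 ran from 0 to 1 and 5 to 50 at 12 h, 7 to 10 and 7 to 19 at 24 h, 22 to 38 and 6 to 9 at 72 h, 0 to 2 and 0 to 1 at 84 h, and 4 to 7 and 30 to 64 from 72 to 96 h. In DC90 they ran from 0 to 5 and 2 to 16 at 12 h, 2 to 16 and 7 to 31 at 24 h, 9 to 30 and 4 to 14 at 72 h, 1 to 16 and 0 to 1 at 84 h, 1 to 3 and 0 to 2 at 96 h, and 9 to 15 and 19 to 24 from 72 to 96 h. Between lines 0 to 15 were higher over all timepoints and 1 to 7 lower at 72 h, and 0 to 2 had an interaction. Of 70 named values, 21 lost their call without at least 1 library. The causes were not tested.

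Correlations of deviations between libraries of the same replicate number ran from -0.27 to 0.34, and in 0 of 13 comparisons did 3 pairs all exceed 0.1; in 1 comparison every library correlated best with its own number. With a replicate block, 1 member was higher in 9311 at 12 h, 4 at 84 h and 1 in DC90 at 12 h, with 0 interactions. It changed no other call count by over 1.5 times. A likelihood ratio test of the interaction with DESeq2 and counts of promoter motifs were not run. Depth limits the weakly expressed copies most.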
